A study of Mus musculus with 15 samples.

Results

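Cytosine methylation in the dentate gyrus was compared between mice that had ever lived in an enriched environment and mice that never had. The ever enriched mice numbered 10 of 15 and joined 2 housing groups, and the remaining 5 were the never enriched mice. All 15 were female C57BL/6JRj mice with no genetic change named, aged 7.5 months. The 5 never enriched mice had 6 months of standard housing and are called standard. Of the ever enriched mice, 5 had environmental enrichment for 6 months and are called enriched, and 5 had enrichment for 3 months, then a further 3 months in standard housing, and are called withdrawal. Enrichment means larger housing with objects to explore. Pooling the enriched and withdrawal mice asks for a pattern that both share against the mice that stayed in standard cages.

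The dentate gyrus is the entry region of the hippocampus, where granule neurons receive cortical input, and it is one of the few places in the adult mammalian brain where new neurons are made. Methylation of a cytosine followed by guanine (CpG) is copied at cell division and can outlast the event that placed it. CpG-rich gene starts are usually unmethylated, while most CpGs inside and between genes are methylated. The DNA came from micro-dissected tissue of mixed cell types, so a changed share of cells and a changed level within cells cannot be told apart.

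Reduced representation bisulfite sequencing gave the percent of methylated reads at a cytosine on 1 strand. Of 2918114 positions in the table, 455836 were CpG positions. Of these, 295467 had a value in at least 8 ever enriched and 4 standard mice, and 240922 lay on neither the Y chromosome nor mitochondrial DNA and ranged over at least 5 percentage points. Read coverage was not part of the table, so the depth behind each percentage is unknown. Standard mouse 1 lacked a value at 34.7% of CpG positions, and the other 14 mice lacked 2.57% to 23.8%. Ever enriched mice had 395271 ± 30610 positions with a value (SD, n = 10) and standard mice 379838 ± 46894 (SD, n = 5), an exact two-sided permutation p of 0.469. No label says that any mice shared a litter or a library batch.

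Methylation differed at very few single CpG sites, and the sites that passed had the same form: the ever enriched mice sat at or next to 0% or 100%, and the standard mice sat between. The limma test (moderated, two-sided, Benjamini-Hochberg adjustment over all tested sites) called 6 of 240922 sites at an adjusted p under 0.05, or 0.00249% of them. Methylation in ever enriched mice was higher at 4 of the 6 and lower at 2. The 6 sites lay inside Pura, Chd6, Nxpe4 and Ttll8, next to an end of Nrp2, and at the start of the long noncoding RNA Gm32925. At all 6, the ever enriched and standard mice did not overlap, which held for 212 tested sites, or 0.088%.

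The reference promoter of Gm32925 is shown because it is the stretch around a called site that the sequence table holds. It spans chr16:87738354-87738653 of GRCm38.p6 on the plus strand (RefSeq) and contains 10 CpGs, of which the called one is in capitals.

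Gm32925: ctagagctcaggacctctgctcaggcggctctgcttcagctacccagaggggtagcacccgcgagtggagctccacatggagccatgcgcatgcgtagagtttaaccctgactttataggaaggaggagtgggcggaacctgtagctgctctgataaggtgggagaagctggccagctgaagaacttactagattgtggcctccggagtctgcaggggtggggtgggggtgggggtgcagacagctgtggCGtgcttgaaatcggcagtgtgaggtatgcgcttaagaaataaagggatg

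The capital C is the base at which RefSeq starts this RNA, position 87738604 of chromosome 16. The nearest protein-coding gene, Bach1, is 5258 bases away. Standard mice had 79.2%, 33.3%, 68.0% and 73.3% methylation there (mice 2 to 5, with no value in mouse 1). All 5 enriched mice and withdrawal mice 1 to 3 had 100%, withdrawal mouse 4 had 97.5%, and withdrawal mouse 5 had no value. The means were 99.7% ± 0.833 (SD, n = 9) and 63.5% ± 20.6 (SD, n = 4), a difference of 36.3 points (limma log2 ratio difference 3.55 ± 0.48 SE, adjusted p = 0.0416). Another CpG 12 bases downstream differed by 18.5 points and one 47 bases upstream by 24.8 points, both higher in ever enriched mice and both short of an unadjusted p of 0.05.

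Nrp2 encodes neuropilin-2, a receptor for the class 3 semaphorins that guide axons, including the mossy fibres of granule neurons. The called site lay on chromosome 1 at 62702649, plus strand, 668 bases from a RefSeq start of the gene and outside it. Standard mice 1 to 5 had 38.5%, 35.7%, 23.4%, 60% and 12.9%, and of the 10 ever enriched mice 9 had 0% and withdrawal mouse 4 had 2.22%. This was the only called site with a value in all 15 mice. The gap was -33.9 points (limma log2 ratio difference -3.39 ± 0.43 SE, adjusted p = 0.0202). The CpGs 26 and 33 bases away on the same strand differed by 3.51 and -2.34 points, far from the difference at the called site.

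Pura encodes Pur-alpha, a protein that binds nucleic acids and is needed for normal brain development. The site inside it, on chromosome 18 at 36287579 on the plus strand, had the smallest p. Standard mice 2 to 5 had 50%, 34.8%, 25% and 27.3%, and all 9 ever enriched mice with a value had 0%. The difference was -34.3 points (limma log2 ratio difference -3.52 ± 0.40 SE, adjusted p = 0.0175). The 15 other CpG sites within 200 bases differed by -3.26 to 4.30 points with a median of 0, and none reached an unadjusted p of 0.05.

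At the other 3 called sites the ever enriched mice were nearly fully methylated. Chd6 encodes a chromatin remodelling helicase, and its site at 161016453 of chromosome 2, minus strand, had 53.3%, 76.9%, 63.6% and 84.3% in standard mice 1, 3, 4 and 5. There, 8 of 9 ever enriched mice with a value had 100% and withdrawal mouse 4 had 98.5% (limma log2 ratio difference 3.21 ± 0.43 SE, adjusted p = 0.0416). The site inside Nxpe4, at 48372632 of chromosome 9 on the plus strand, had 73.3%, 74.4%, 84.6% and 77.3% in standard mice 1 to 4. Ever enriched mice had 100% there except withdrawal mouse 1 with 98.2% (n = 9, limma log2 ratio difference 2.74 ± 0.37 SE, adjusted p = 0.0416). Ttll8 encodes an enzyme that adds glycine to tubulin, and its site at 88946068 of chromosome 15, plus strand, had 71.1%, 63.2%, 82.9% and 35.3% in standard mice 2 to 5. All ever enriched mice had 100% except withdrawal mouse 2 with 93.3% (n = 10, limma log2 ratio difference 3.49 ± 0.49 SE, adjusted p = 0.0416).

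**Figure D1:**
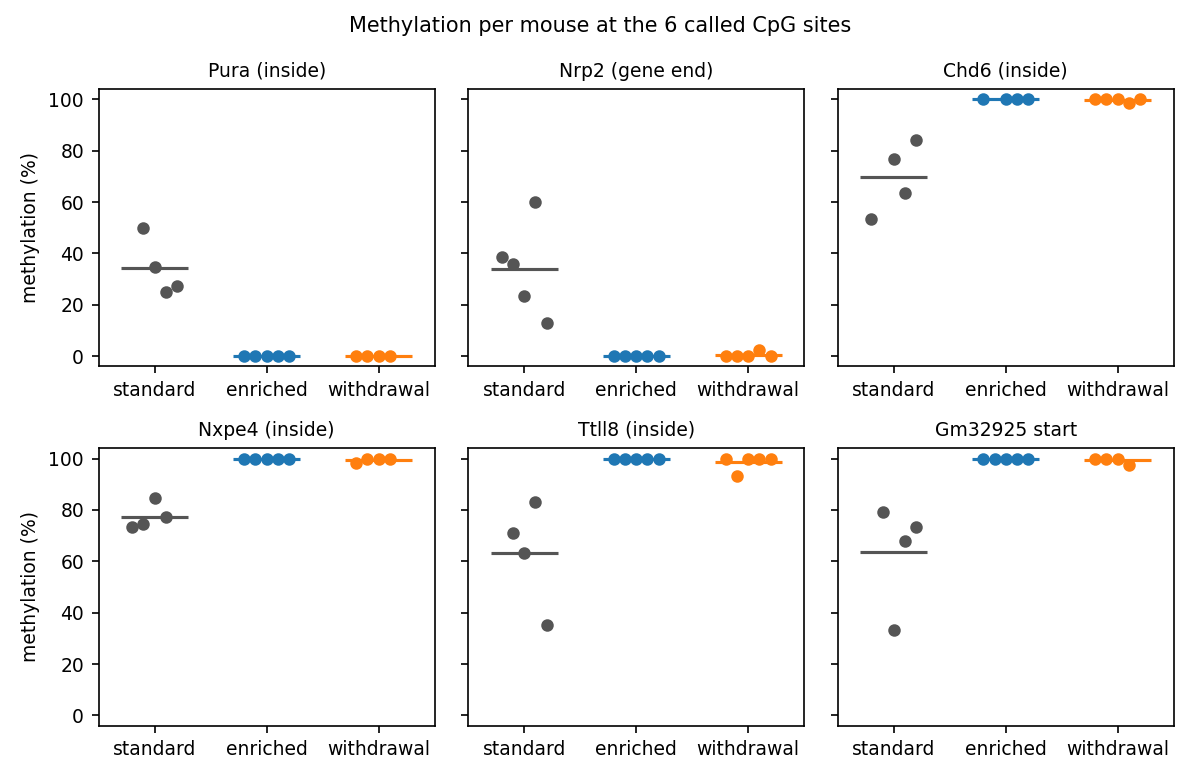
Methylation in percent (vertical axis) at the 6 called CpG sites, with 1 point per mouse by housing group and the group mean as a line. The enriched and withdrawal mice lie at 93.3% to 100% or at 0% to 2.22%, and the standard mice lie between without overlapping them.

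The spread of the standard mice at these sites was far wider than that of the ever enriched mice. The median SD over the 6 sites was 15.8 points in standard and 0.654 points in ever enriched mice, and the standard SD was the larger at all 6. Among all tested sites the standard SD was the larger at 45.5%, and among the 339 with an unadjusted p under 0.001 at 71.1%. The limma fit assumes an equal spread in both groups, which these sites do not have. Of the 6, 5 lacked a value in 1 standard mouse, as did 36.9% of the tested sites. On simulated data, in which the values of each site were shuffled over the mice and some sites were given a difference, the same fit also called sites with no difference. They made up a larger share of its calls than 0.05, so adjusted p-values of this fit can be too small. That share depends on the sites given a difference. These were drawn with an equal spread in both groups and then cut off at the limits of the percent scale. Their standard mice were placed near such a limit and their ever enriched mice away from it, the reverse of the called sites. The called sites have no equal spread, so the size of the share does not carry over to them. Whether the missing values had a part in the calls was not tested. The calls were few enough to depend on the fit: 2 of the 6 passed with 3 group means, 2 on the percent scale, and 0 with a variance prior that discounts outlying variances. With 1 mouse left out, 4 to 6 of the 6 sites passed in each of the 15 fits.

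The next 6 sites by p, which failed the adjustment, had the same form. Adjusted limma p-values were 0.0602 near Hoxd3, at Akap12 and in Myo10, 0.0668 in Erg, 0.0822 on chromosome 17 far from any gene, and 0.130 near Pgbd5. The Hoxd3 site lay 2291 bases from Hoxd3 and in or within 1 kb of the long noncoding RNA gene Haglr. The Pgbd5 site lay 15461 bases from Pgbd5 and in or within 1 kb of the long noncoding RNA gene C330016L05Rik. Each of the 6 passed in some alternatives and not in others, with adjusted limma p-values from 0.00192 to 0.533 at the Hoxd3 site, 0.00532 to 0.476 at Erg, 0.00474 to 0.624 at Akap12 and 0.0139 to 0.624 at Myo10. Erg encodes an ETS transcription factor known for its role in endothelium. At its site (chromosome 16, 95458438, minus strand) standard mice 1 to 5 had 75.0%, 60.6%, 59.3%, 73.3% and 57.1%. Ever enriched mice ranged from 86.2% to 100% with a median of 100%, so the groups did not overlap. Akap12 encodes a scaffold that anchors protein kinase A. Its site at 4265856 of chromosome 10, minus strand, had 13.2% to 68.4% in standard mice, and 0% in 8 of the 9 ever enriched mice with a value, the other being enriched mouse 4 with 9.09%. Myo10 encodes a myosin of filopodia, and its site at 25758132 of chromosome 15, plus strand, had 40.0% to 59.1% in standard and 0% to 12.0% in ever enriched mice.

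Neighbouring CpGs moved together at some of the 12 sites and not at others. At the 6 called sites no tested neighbour reached an unadjusted limma p of 0.05. The single neighbour differed by 10.1 points at Chd6 and 5.09 points at Nxpe4, and the 2 at Ttll8 by 0 and -5.42 points. The sites with neighbours under that limit, Erg, Akap12 and Myo10, were not called. Around the Erg site all 4 CpGs within 200 bases were higher in ever enriched mice, by 21.2 to 32.2 points, each at an unadjusted limma p under 0.05. Both CpGs with enough values near the Akap12 site were lower, by 31.3 and 21.5 points, and the single one near the Myo10 site was lower by 22.2 points, also at an unadjusted p under 0.05. Around the Hoxd3 site, where standard mice had 7.14% to 47.6% and all 10 ever enriched mice 0%, all 7 neighbours differed the other way, by 0.718 to 6.93 points. The neighbours at Erg, Akap12 and Myo10 were on the same strand as the named site, so they can come from the same reads. For none of the 12 sites did the table hold the cytosine on the other strand of the same CpG.

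**Figure D2:**
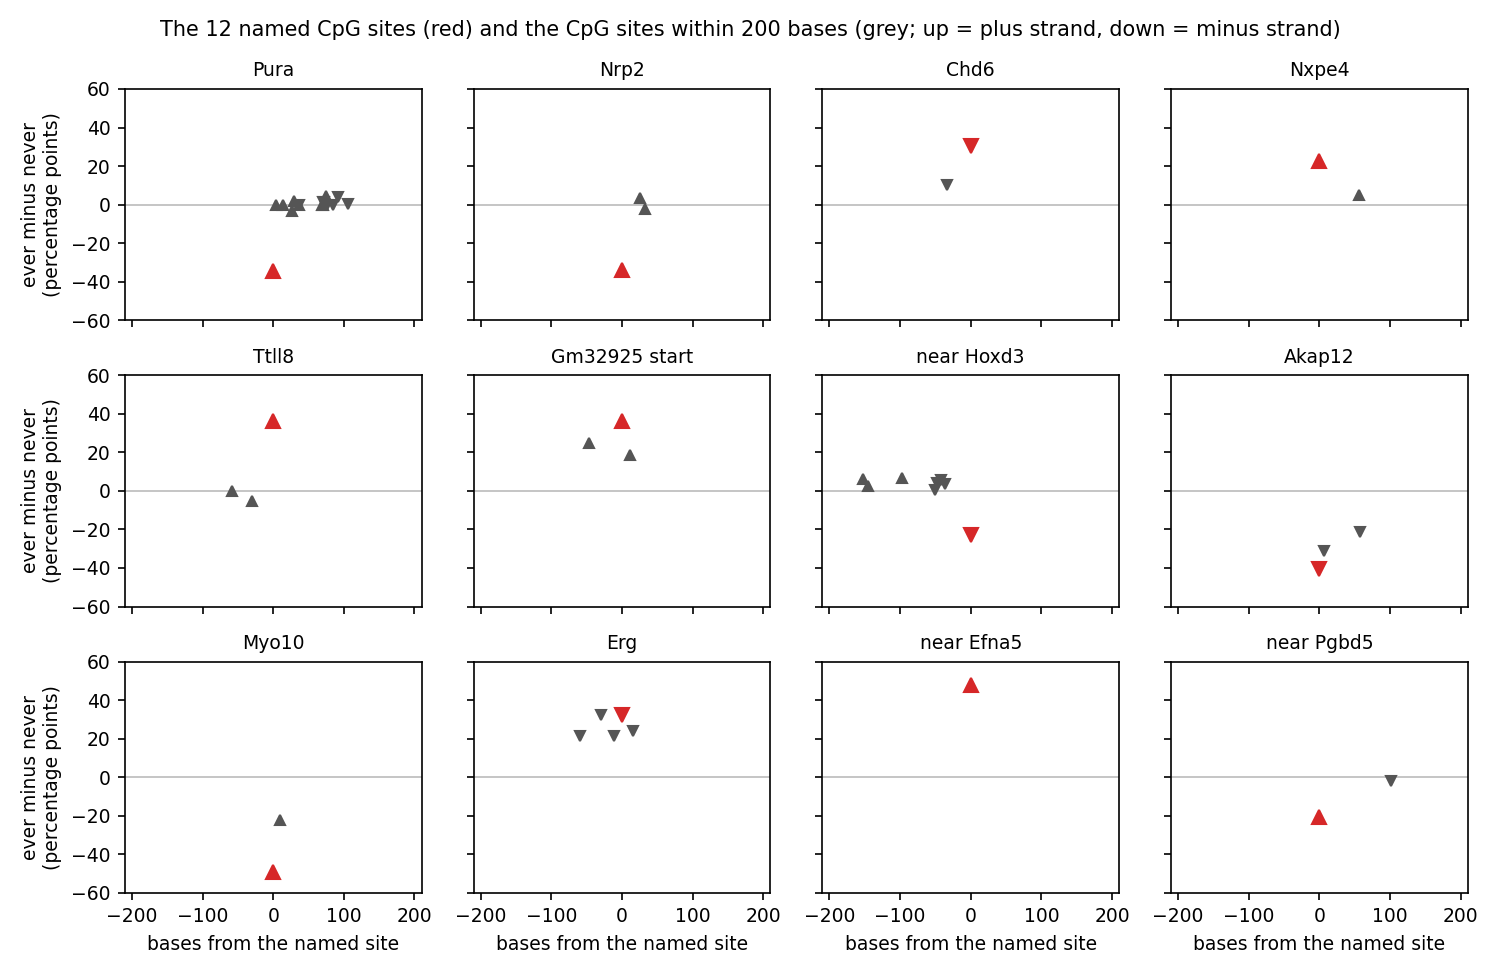
Difference in methylation between ever enriched and standard mice in percentage points (vertical axis) against distance in bases (horizontal axis) for the 12 sites of smallest p in red and the CpG sites with enough values within 200 bases in grey, with upward triangles for the plus strand. The neighbours of Erg lie at 21.2 to 32.2 points beside the site, while those of Pura lie between -3.26 and 4.30 points.

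Where both strands of a CpG were tested, their levels matched and their differences did not. Across 8885 CpGs the mean level over the 15 mice had a Pearson r of 0.972 between strands, while the ever minus never difference had an r of 0.0212. Among the 1711 CpGs with a mean of 20% to 80% the r of the difference was 0.0213. CpGs within 50 bases on the same strand, which can share reads, had an r of 0.287 over 107465 pairs and 0.378 over 22329 pairs with means of 20% to 80%. Sites are not independent replicates, and these values describe these mice only. Of 17770 tested sites whose other strand was also tested, 51.4% had the same direction on both strands. Of the 21 such sites with an unadjusted p under 0.001, 10 had the same direction on the other strand and 2 also had an unadjusted p under 0.05 there.

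Over all tested sites, 10970 had an unadjusted limma p under 0.05, or 4.55%. Unadjusted p-values under 0.001 came from 339 sites, of which 184 were higher and 155 lower in ever enriched mice. Sites within 1 kb of a gene end made up 29.0% of the 155 lower sites and 6.52% of the 184 higher sites, against 21.2% of all tested sites. Among sites without overlap between the groups, they made up 21.8% of the 87 lower and 6.4% of the 125 higher sites. The standard SD was the larger at 70.3% of the 155 lower and 71.7% of the 184 higher sites. Whether the low level of gene ends or the unequal spread had a part in these shares was not tested. Of the genes, Adamtsl3, Gldc, Med12l and Pmepa1 each held 2 sites without overlap between the groups, and every other gene held at most 1.

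Within the pooled mice, no difference between withdrawal and enriched passed at the named sites. In a fit of the 3 group means, withdrawal against enriched gave an unadjusted limma p under 0.05 at 0 of the 12 sites, the smallest being 0.256, against 4.26% of all tested sites. The median absolute gap between withdrawal and enriched means was 0.449 points at these sites, beside 34.1 points between ever enriched and standard mice. The choice of sites that separate the pooled mice from the standard mice favours a small gap, so this is a description. Of all 240922 sites, 1 was called for withdrawal against enriched.

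Averaging the CpGs of a 1 kb window, over the sites with a value in every mouse and with at least 3 such sites, gave 3 calls among 15677 windows, or 0.0191%. An unadjusted limma p under 0.05 was reached by 863 windows, or 5.5%. The groups did not overlap in 13 windows, or 0.0829%. Methylation was lower in ever enriched mice in 2 of the 3 called windows and higher in 1.

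The window of smallest p lay on chromosome 5 from 118806001 to 118807000, between genes and 40820 bases from Med13l, which encodes a subunit of the Mediator kinase module. Standard mice 2 to 5 had 100% and standard mouse 1 had 98.7%. Ever enriched mice had 87.9% to 96.9% with a median of 90.6%, so all 10 lay below all 5. The gap was -8.52 points (limma log2 ratio difference -1.49 ± 0.21 SE, adjusted p = 0.0245). Here the ever enriched mice were the more variable, the reverse of the called sites. Its 3 CpGs differed by -13.7, -3.90 and -7.94 points. They lay between 118806258 and 118806296 on the plus strand, so they cover a small part of the window and can share reads.

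Erg held the called window that was higher in ever enriched mice, on chromosome 16 from 95458001 to 95459000. Its 3 CpGs lay 921 bases or less from a RefSeq start of the gene. They lay between 95458427 and 95458453 on the minus strand, so they too can share reads. Standard mice 1 to 5 had 91.7%, 60.9%, 68.5%, 80.4% and 55.9%, and ever enriched mice ranged from 86.7% to 100% with a median of 98.9%. The groups overlapped only by standard mouse 1, which lay above withdrawal mouse 2. The difference was 25.9 points (limma log2 ratio difference 2.57 ± 0.41 SE, adjusted p = 0.0404). Each of its 3 CpGs differed in that direction, by 21.5, 32.3 and 23.7 points.

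Birc2 encodes cIAP1, a ubiquitin ligase that inhibits cell death signalling. The third called window lay on chromosome 9 from 7836001 to 7837000. Its 3 CpGs, from 7836327 to 7836351 on the plus strand, lay inside Birc2 near an end of the gene and can share reads. The first lay 479 bases from a RefSeq start of the gene. Standard mice 1 to 5 had 3.42%, 6.35%, 3.79%, 3.40% and 6.5%, and ever enriched mice had 0% to 1.96%, with no overlap. The difference of -4.29 points (limma log2 ratio difference -0.90 ± 0.14 SE, adjusted p = 0.0336) came mostly from 1 of its 3 CpGs, which averaged 13.1% ± 3.94 (SD, n = 5) in standard and 1.20% ± 1.91 (SD, n = 10) in ever enriched mice.

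None of the 3 windows kept its call in every fit. On the percent scale 0 windows were called, and 0 were called without standard mouse 2, without enriched mouse 2, 4 or 5, or without withdrawal mouse 1 or 5. Adjusted limma p-values over all alternatives reached 0.121 for the chromosome 5 window, 0.232 for Erg and 0.927 for Birc2.

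The other 5 windows of smallest p failed the adjustment, and 3 of them passed it once a mouse was left out. The window inside Brsk1, a kinase of neuronal polarity, and the overlapping Tmem150b had 78.0% to 92.5% in standard and 92.6% to 100% in ever enriched mice (limma adjusted p = 0.0558), with no overlap. It passed in 4 of the fits without 1 mouse, with adjusted limma p-values of 0.0294 to 0.286 over all alternatives. Slit2 encodes a secreted axon guidance ligand of Robo receptors. Its window had 10.3% to 13.2% in 4 standard mice, 0% in standard mouse 3 and 0% to 3.03% in ever enriched mice (limma adjusted p = 0.351). Without standard mouse 3 it was called (limma adjusted p = 0.000671), and over all alternatives the adjusted p was 0.000671 to 0.927. The gap of the Slit2 window came mostly from the CpG at 47983690. That CpG averaged 31.0% ± 22.6 (SD, n = 5) in standard and 0.938% ± 2.96 (SD, n = 10) in ever enriched mice. Windows 19549 bases from Arid1b and 2164 bases from Cdkn2a differed by -14.3 and 7.89 points (limma adjusted p = 0.351 for each). Pdyn encodes prodynorphin, the precursor of the dynorphin opioid peptides that granule neurons make. Its window had 100% in standard mice 1, 4 and 5 and 73.4% and 57.0% in mice 2 and 3. Ever enriched mice had 20.2% to 71.9% there (difference -38.4 points, limma adjusted p = 0.464), so standard mouse 3 lay within their range. Without standard mouse 3 this window also passed (limma adjusted p = 0.0487, and 0.0487 to 0.799 over all alternatives).

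**Figure D3:**
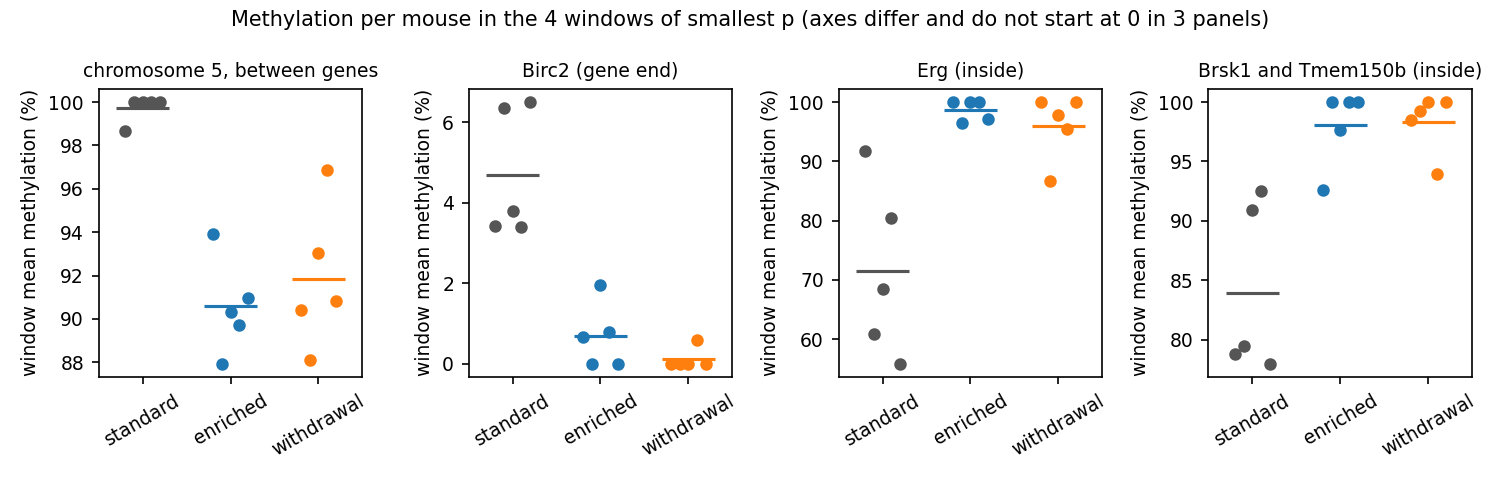
Mean methylation in percent (vertical axes, which differ between panels) of the 4 windows of smallest p, with 1 point per mouse by housing group and the group mean as a line. In the chromosome 5 window all standard mice lie at 98.7% to 100%, and in the Erg window standard mouse 1 lies among the ever enriched mice.

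For withdrawal against enriched, 0 of the 8 windows had an unadjusted limma p under 0.05, the smallest being 0.0895 for the window near Cdkn2a, against 4.39% of all windows. These windows were chosen for separating the pooled mice from the standard mice, which favours a small gap, so this too is a description.

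Gene ends were taken as the 1 kb before and after each end of a protein-coding gene, with at least 3 complete CpGs. Of these, 0 of 4207 were called by limma, or 0.0%. An unadjusted p under 0.05 was reached by 222 genes, or 5.28%. Ends without overlap between the groups numbered 2, or 0.0475%: Hoxc13, a homeobox gene, and Pik3r3, a regulatory subunit of phosphoinositide 3-kinase. With gene starts from the RefSeq promoter table in place of ends, limma called 1 of 3433 genes, or 0.0291%. That gene was Erg (difference 25.9 points, adjusted p = 0.0331), through the same 3 CpGs as its window. The start table lacks some of the genes, so ends were kept for the description that follows.

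The 8 gene ends of smallest p had an adjusted limma p of 0.779 each. Rcan1, which encodes an inhibitor of the phosphatase calcineurin, had the widest gap. Its 4 CpGs (chromosome 16, 92391834 to 92391909) averaged 68.7%, 50.5%, 48.3%, 98.1% and 35.7% in standard mice 1 to 5. Ever enriched mice ranged from 3.05% to 55.5% with a median of 21.1%, the highest being withdrawal mouse 5. The difference was -37.7 points and the groups overlapped. The first of these CpGs lay 117 bases outside Rcan1 and 8244 bases from the nearest RefSeq start of the gene. Adra2a, the alpha-2A adrenergic receptor, had 3.01% ± 1.88 (SD, n = 5) in standard and 0.461% ± 0.566 (SD, n = 10) in ever enriched mice. Ddr1, a receptor for collagen, had 3.40% ± 4.39 (SD, n = 5) and 15.6% ± 9.87 (SD, n = 10), and Hoxc13 had 0.644% ± 0.606 (SD, n = 5) and 4.17% ± 2.32 (SD, n = 10). Most of the gap at Adra2a, Ddr1 and Hoxc13 came from a single CpG each. In standard and ever enriched mice that CpG averaged 21.7% and 3.28% at Adra2a, 2.73% and 28.0% at Ddr1, and 1.83% and 12.2% at Hoxc13. Slfn9 and Fchsd2 differed by 5.65 and -1.88 points. At the end shared by Ptgr2 and Zfp410, standard mouse 5 had 19.0% and the other 4 had 1.14% to 3.84%, beside 9.53% to 19.3% in ever enriched mice. Without standard mouse 5, the ends of Ptgr2 and Zfp410 were both called (limma adjusted p = 0.00432 and 0.0492, with 0.00432 to 0.928 for Ptgr2 over its alternatives).

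The promoter of Tmem132b, a transmembrane protein gene, is shown because its 3 measured CpGs had the smallest p of all gene ends. They are in capitals, out of 15 CpGs in the stretch chr5:125532168-125532467 of GRCm38.p6, plus strand (RefSeq).

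Tmem132b: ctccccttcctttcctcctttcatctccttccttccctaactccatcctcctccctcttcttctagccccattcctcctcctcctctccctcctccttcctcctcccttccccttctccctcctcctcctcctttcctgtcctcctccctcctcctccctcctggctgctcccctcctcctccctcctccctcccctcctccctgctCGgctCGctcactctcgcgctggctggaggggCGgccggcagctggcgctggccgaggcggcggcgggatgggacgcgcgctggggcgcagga

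Standard mice had 1.15% to 5.05% methylation over these 3 CpGs, and ever enriched mice had 0% in 8 mice, 1.19% in enriched mouse 4 and 0.741% in withdrawal mouse 4. Enriched mouse 4 lay just above standard mouse 4. The difference was -2.27 points (limma log2 ratio difference -0.54 ± 0.11 SE).

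In the 5 pathway lists 2.36% to 5.55% of the tested sites had an unadjusted limma p under 0.05, beside 4.41% of the 139806 sites at or inside any gene. Those 4.41% were 6161 sites, 3047 higher and 3114 lower in ever enriched mice. The list of activity and plasticity genes had 22 of 467 such sites (4.71%), 11 in each direction, and none was called. Its gene ends of smallest p were Rcan1 and Junb, an immediate early gene, whose 10 CpGs averaged 2.95% ± 2.15 (SD, n = 5) in standard and 0.843% ± 0.597 (SD, n = 10) in ever enriched mice (limma adjusted p = 0.898). The list of granule cell and neurogenesis genes had 12 of 508 sites (2.36%). Its leading end, Eomes of the intermediate progenitors, had 2.57% ± 3.08 (SD, n = 5) and 0.798% ± 1.09 (SD, n = 10) (limma adjusted p = 0.898).

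Semaphorin signalling genes had 9 of 266 sites (3.38%), 7 lower and 2 higher, and among them the called Nrp2 site. Over all 5 complete CpGs at the ends of Nrp2 the difference was -6.48 points, from 9.45% ± 3.64 (SD, n = 5) to 2.98% ± 4.16 (SD, n = 10), with overlap and an adjusted limma p of 0.898. The called site is among these 5 CpGs, and the others differed by 3.51, -2.34, -0.456 and 0.769 points, so this value mostly repeats the called site. Genes of the DNA methylation machinery had 9 of 164 sites (5.49%), also 7 lower and 2 higher. Whether either split differs from that of all sites at genes was not tested. The end of Gadd45b, an activity-induced gene linked to demethylation, had 1.40% ± 1.12 (SD, n = 5) and 2.63% ± 1.94 (SD, n = 10). Glutamate receptors and their scaffolds had 34 of 613 sites (5.55%), 17 in each direction. The end of Gria3, an AMPA receptor subunit gene on the X chromosome, had 28.0% ± 4.0 (SD, n = 5) and 36.3% ± 9.0 (SD, n = 10). Median differences over the sites of these 5 lists were 0.506 to 1.11 points, against 0.690 points over all sites at genes.

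**Figure D4:**
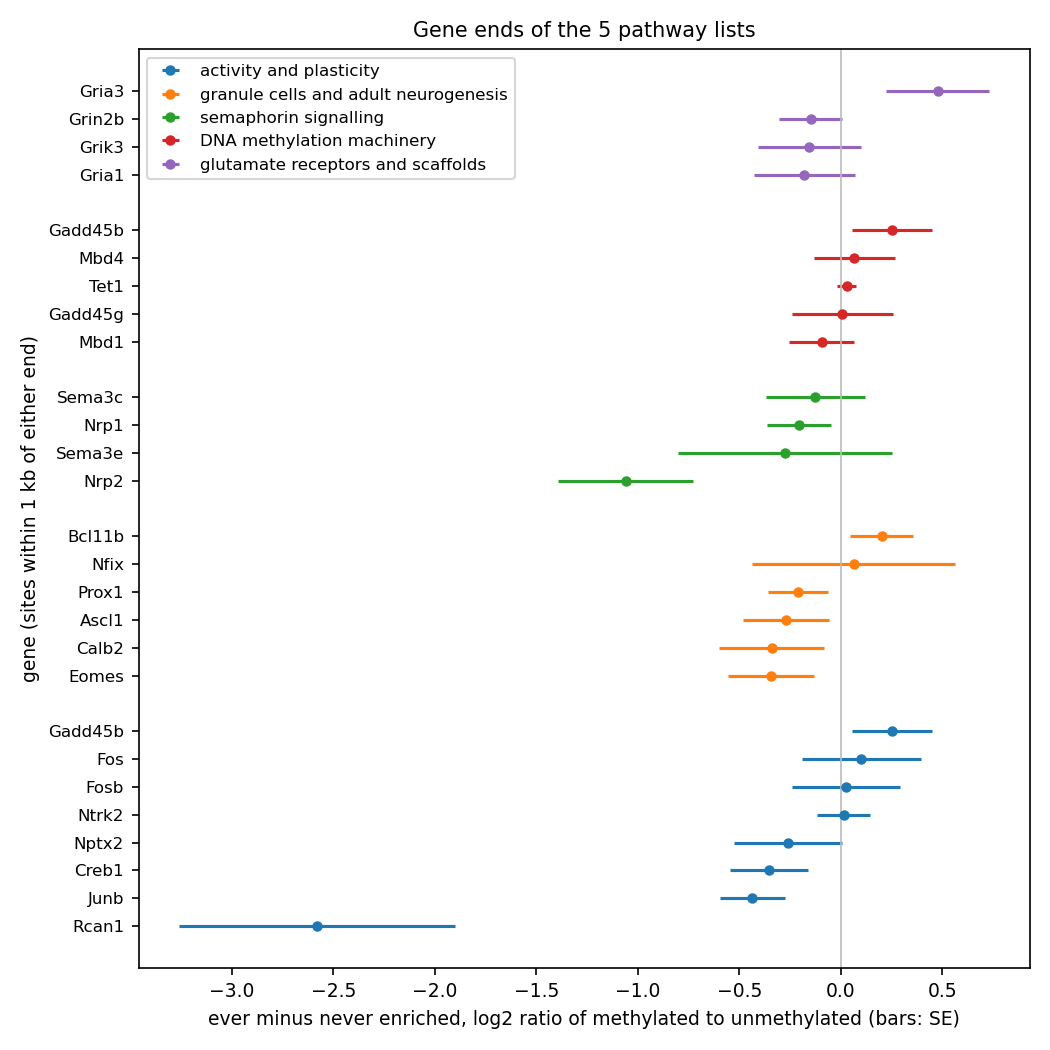
Fitted difference between ever enriched and standard mice on the log2 ratio scale (horizontal axis, bars are standard errors) for each gene of the 5 pathway lists with a tested gene end. Rcan1 at -2.58 and Nrp2 at -1.06 lie farthest from 0, and neither passed the adjustment.

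Marker lists of cell types were counted in the same way, which does not measure the share of each cell type. Unadjusted limma p-values under 0.05 came from 9 of 194 sites at markers of granule neurons (4.64%, 7 lower and 2 higher in ever enriched mice) and 4 of 122 at interneuron markers (3.28%, 3 lower and 1 higher). Astrocyte markers had 0 of 67, microglia markers 0 of 20 and oligodendrocyte markers 6 of 66 (9.09%, 4 lower and 2 higher). Markers of endothelium had 9 of 95 (9.47%, 7 lower and 2 higher), beside the 4.41% of all sites at genes. Median differences over the sites of these 6 lists were -1.31 to 0.837 points, with -1.18 for endothelium and -1.31 for microglia. None of these sites was called, and whether a shift in cell types had a part in the Erg difference was not tested. The end of Prox1, the granule neuron marker, had 2.37% ± 1.26 (SD, n = 5) and 1.40% ± 0.870 (SD, n = 10), and that of the oligodendrocyte marker Sox10 had 5.28% ± 2.77 (SD, n = 5) and 7.30% ± 4.92 (SD, n = 10). Both are low, so methylation at these 2 CpG-rich ends gives no check of the dissected tissue. The interneuron marker end of smallest p, Slc32a1, had 6.15% ± 4.21 (SD, n = 5) and 3.23% ± 2.76 (SD, n = 10). That of astrocytes, Aldh1l1, was not low, with 39.4% ± 8.2 (SD, n = 5) and 30.5% ± 8.2 (SD, n = 10). Slc32a1 and Aldh1l1 each had an adjusted limma p of 0.898. Of the marker ends, 2 of 3 for astrocytes and 3 of 4 for interneurons were higher in ever enriched mice. What Aldh1l1 shows of the tissue makeup was not tested.

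Mean methylation of whole mice did not differ beyond the spread between them. Over the 113832 CpG sites measured in every mouse, ever enriched mice had 47.3% ± 0.802 (SD, n = 10) and standard mice 46.9% ± 0.452 (SD, n = 5). The difference was 0.363 points (exact permutation p = 0.363 over all arrangements of 10 against 5 mice, two-sided, adjusted over 5 measures to 0.444). At sites near gene ends, within genes and outside genes the differences were 0.234, 0.385 and 0.414 points (exact permutation p of 0.145, 0.444 and 0.371, which all adjust to 0.444). Restricting gene ends to sites with a mean of 20% to 80% gave 2.55 points, from 42.6% ± 1.56 to 45.2% ± 2.23 (exact permutation p = 0.0380, adjusted 0.190). Over all sites with enough values, which differ from mouse to mouse, the mean difference turned to -0.0822 points.

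The distance of a mouse from the rest, taken as its mean absolute difference from the mean of the other 14 mice over the same sites, asked whether ever enriched mice were more individual. It was 7.30 ± 0.919 points (SD, n = 10) in ever enriched and 7.87 ± 0.675 (SD, n = 5) in standard mice, a difference of -0.564 points (exact permutation p = 0.247, adjusted 0.444). The pooled mice were not alike in it: the withdrawal mice averaged 6.78 points and the enriched mice 7.82. Withdrawal mouse 4, with the fewest missing values, had the lowest distance at 5.51 points. Enriched mouse 5 and standard mouse 1, which had the most or nearly the most missing values in their groups, each had 8.55 points. The part of coverage in this measure was not tested.

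**Figure D5:**
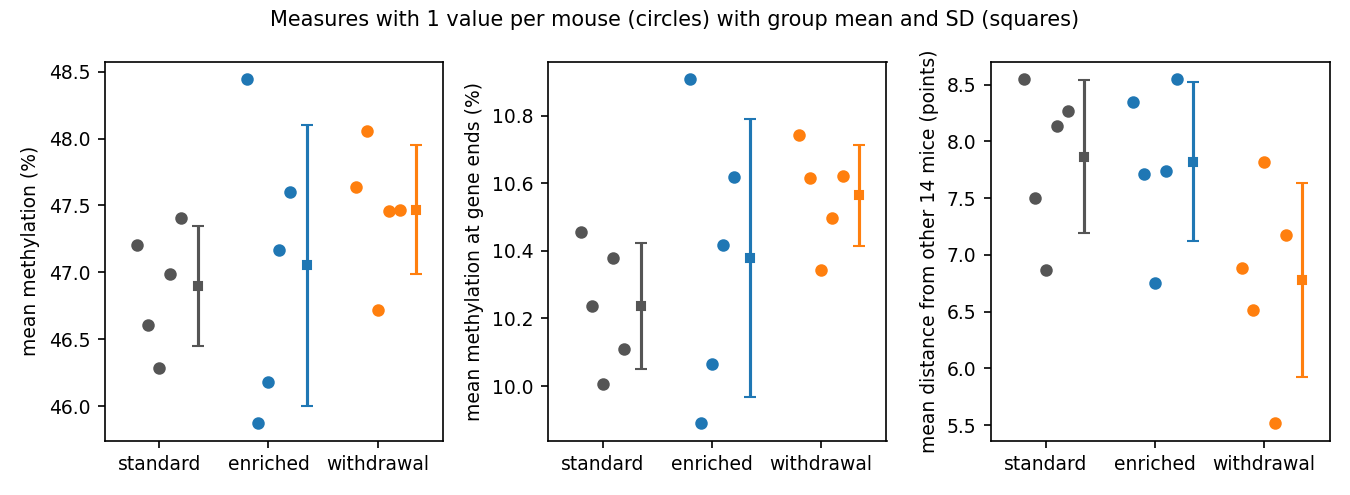
Mean CpG methylation, mean methylation at gene ends (both in percent) and distance from the other 14 mice (percentage points) on vertical axes that do not start at 0, with 1 circle per mouse by housing group and squares with bars for the mean and SD. The ranges of the groups overlap in all 3 panels, and the withdrawal mouse at 5.51 points has the lowest distance.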

How the data were processed

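Reduced representation bisulfite libraries of 15 mice were sequenced. The deposited table gives percent methylation for a cytosine on 1 strand. Per the submitters' processing notes, Trim Galore 0.4.0, cutadapt 1.8.1, Bismark 0.16.1, methylKit 1.5.2 and the mm10 build were used. Their options and any coverage minimum are not given in the sources used here.

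CpG positions are those before the chromosome column starts over. Of them, all 40750 that fall in a RefSeq promoter sequence are CpG there, and all 118733 later ones in such sequences are other cytosines. Each value became a log2 ratio, log2((percent + 5)/(100 - percent + 5)), to which limma 3.58.1 in R 4.3.3 fitted a contrast of ever against never enriched (10 against 5 mice) with a moderated variance that follows the mean. Values missing in a mouse were left out of the fit of that site. Mouse means and distances were compared by exact permutation tests. The site fit was tested on simulated data, where it also called sites with no difference in a larger share of its calls than 0.05. Limma p-values set a difference against the moderated spread between these mice, and permutation p-values set it against the other arrangements of them.

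Sites named in the text are the 12 of smallest p, windows and gene ends the 8 of smallest p each, and for each list the gene end of smallest p. Junb, the ends without overlap and the genes with 2 sites without overlap were named after their values were seen. The members and lists were chosen with earlier results of these data known. Gene positions came from RefSeq (GRCm38.p6, 21900 protein-coding genes). The plan was to use gene starts if a reference gave them. The start table covers 17492 of these genes and none on chromosome 18, so gene ends were kept, after both had been run. Exons and introns were not annotated here. Alternatives covered the offset, scale, model, weights, filters and each mouse left out. A robust variance prior, gene starts, and mice left out with the rule on values applied again were chosen after seeing the data.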

Additional observations from a re-analysis of the deposited data

Results flagged for a closer look

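Among the features and mouse measures of the text, 64 groups of 4 to 10 mice were checked for a mouse far from the rest, and 17 had one, or 26.6%, where chance alone gives about 1 in 20. Groups in which every other mouse has 0% or 100% meet the criterion with any other value in the last mouse. These were withdrawal mouse 4 at the sites of Nrp2 (2.22%), Chd6 (98.5%), Gm32925 (97.5%) and near Pgbd5 (6.25%), withdrawal mouse 1 in Nxpe4 (98.2%), withdrawal mouse 2 in Ttll8 (93.3%), enriched mouse 4 at Akap12 (9.09%), and standard mouse 1 in the chromosome 5 window (98.7%).

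In the other groups the far mouse was withdrawal mouse 5 at the Myo10 site (12.0%), enriched mouse 5 at the chromosome 17 site (87.1%), enriched mouse 3 in the Birc2 window (1.96%) and withdrawal mouse 2 in the Erg window (86.7%). Standard mouse 3 was far below the others in the Slit2 window (0%), and standard mouse 5 far above them in the window near Cdkn2a (4.62%). At gene ends the far mice were withdrawal mouse 3 at Hoxc13 (10.1%), enriched mouse 2 at Fchsd2 (2.17%) and standard mouse 5 at Ptgr2 (19.0%).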

How the results depend on the processing

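Site calls moved with most settings: against 6, limma called 10 with an offset of 1 point, 2 with 3 group means, 14 without the range filter, 3 with values in all mice and 0 with the robust variance prior. Of the 6 called sites only 1, at Nrp2, could enter the fit with values in all mice, and it was called there. With 1 mouse left out, 4 to 51 sites were called, the 33 to 51 all without a standard mouse, when sites with 3 standard values enter. With the rule on values applied again the range was 4 to 22, the 22 without standard mouse 1, 12 without standard mouse 5, and 10 without enriched mouse 3 or withdrawal mouse 5. Window calls were 1 with an offset of 1 point, 0 on the percent scale, 0 with all sites with enough values, 0 with at least 5 sites and 0 to 5 with 1 mouse left out, against 3. The 3 called windows held 3 CpGs each, so none of them could enter the fit with at least 5 sites. Gene ends had 1 call with gene starts and 0 to 2 with 1 mouse left out (2 without standard mouse 5). With the replicate block, 0 sites, 1 window and 0 gene ends were called. Between mice of different groups, deviations from the group means had a correlation of -0.0144 to 0.0132 for equal replicate numbers and -0.0167 to 0.0193 for unlike numbers. These correlations run over all sites with a value in every mouse, so a pairing that acts on few sites would not show in them. At all sites with enough values, the mouse means turned to -0.0822 points over all sites, -0.00118 at gene ends and -0.0301 inside genes. Of the named gene ends, Eomes turned to 0.339 and Prox1 to 0.0108 points with all sites with enough values. Flt1 (0.0506 points) turned to -0.919 with all such sites, -0.266 with gene starts, and ranged from -0.375 to 0.863 with 1 mouse left out. No other named feature changed direction in any alternative, and the adjusted p of the mouse measures stayed at 0.190 or above. The unknown coverage limits what a single percentage shows.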

Other observations

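The called Gm32925 site, the called Erg window and the Rcan1 gene end, picked out here after their values were seen, all lie on chromosome 16 between 87738604 and 95458453. Whether such features cluster in that region was not tested.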
